A study of Mus musculus with 114 samples.

Results

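Collagen fibrils are the ropes of the extracellular matrix around adipocytes, and the 10 genes described here encode fibril-forming chains and proteins that act on them: Col1a1 and Col1a2 (type I collagen), Col3a1 (type III), Col5a1, Col5a2 and Col5a3 (type V), Pcolce and Pcolce2 (enhancers of procollagen processing), Lox (a cross-linking oxidase) and Mrc2 (an uptake receptor). They were listed by gene symbol, with earlier results of these data known, and all 10 of them were among the 29132 genes of the table. The RNA was that of perigonadal adipocytes, the floating layer of a fat pad digested with collagenase, from 38 male C57BL/6J mice. At 6 weeks of age all mice were put either on a chow diet, CD, or on a high fat diet, HFD, and they were taken after 8, 20 or 34 weeks, at 14, 26 and 40 weeks of age. Each group held 6 mice, except the CD group at 34 weeks with 8. The methods name a pair of control diets, and which CD mouse ate which is not given in the labels, and age and time on diet cannot be told apart.

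Fibrillar collagens are secreted as procollagens whose chains are hydroxylated and folded in the endoplasmic reticulum. Outside the cell, proteinases remove the propeptides, a step that PCPE-1 (the product of Pcolce) and its relative PCPE-2 (Pcolce2) enhance for the C-propeptide. The trimmed molecules assemble into fibrils in which type I collagen is the bulk, type III shares the fibril and type V sits at its core and limits its width. Lysyl oxidase, made from Lox, oxidizes lysines and starts cross-linking. Endo180, made from Mrc2, binds collagen and carries it into the cell for breakdown in lysosomes. In adipose tissue fibroblasts and progenitors are known as strong producers of types I and III, and Col5a3 is known to be expressed in fat.

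Values are CPM, the reads of a gene among 1000000 reads on the listed genes, made by the authors. Each mouse had between 9275711 and 15480388 reads on genes, so that 1 read was worth 0.0646 to 0.108 CPM. A gene was called changed when limma's test on log2(CPM + 1), fitted over all 6 groups, gave an adjusted p under 0.05, with Benjamini-Hochberg adjustment over 10343 genes. All 10 genes had passed the filter on low values, a mean above 2.0 on that scale over all mice. The labelled cell type was checked on 10 adipocyte markers, which summed to between 18360 and 72564 CPM in every mouse. At 8 weeks the sum was 54149 to 66880 CPM in CD and 38710 to 53490 CPM in HFD mice. At 20 weeks it was 46854 to 72564 and 27852 to 40098 CPM, and at 34 weeks 32018 to 68343 and 18360 to 43310 CPM. The diets did not overlap at 8 and 20 weeks. Such a sum does not measure the part of other cells. Mouse 5 of the CD group at 34 weeks had the lowest mean correlation with its group of all 38 (r = 0.892 over the genes tested). It was followed by mice 6 (r = 0.908) and 4 (r = 0.936) of the same group. Results at 34 weeks are given with and without mouse 5 where it changes them. Nothing in the labels says that mice of a group were of separate litters or cages, and the tests measure the spread between these mice.

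The genes lie apart in the genome except for one pair. On GRCm38, Col3a1 (chr1:45311538-45349706) and Col5a2 (chr1:45374331-45503282) are neighbours on opposite strands. Col1a1 (chr11:94936224-94953042) and Mrc2 (chr11:105292093-105351146) share a chromosome, as do Col5a3 (chr9:20770050-20815117) and Pcolce2 (chr9:95637628-95695551). Col5a1 is at chr2:27886381-28039510, Col1a2 at chr6:4505618-4541543 and Pcolce at chr5:137605105-137611522. In the GENCODE vM21 annotation Pcolce overlaps Fbxo24 on its own strand, Col1a2, Col3a1 and Col5a2 overlap noncoding entries of their own strand, and Pcolce, Pcolce2, Col5a1, Col5a3 and Lox overlap noncoding genes of the other strand. Per the methods, a read had to overlap a single gene without ambiguity to be counted, so that reads in shared exons may be missing from the values.

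Promoters of 3 genes that were called higher on HFD are shown, 1 of them (Pcolce2) called at 8 and 20 weeks and the others (Col1a2 and Col3a1) at 20 weeks only. RefSeq windows were found for 6 of the 10 genes, and the 250 bases before the start are given for those whose window ends at the annotated gene start, 5′ to 3′ on the plus strand of GRCm38.p6 (Col1a2 chr6:4505368-4505617, Col3a1 chr1:45311288-45311537, Pcolce2 chr9:95637378-95637627). Capitals mark matches to any of 4 short motifs, searched on both strands, none of which overlapped another, and a match on the other strand stands as its reverse complement. The motif bound by the factor NF-Y was read as CCAAT. The motif bound by Sp family factors was read as GGGCGG. The core promoter motif bound by the TBP factor was read as TATAAA. The motif bound by Smad factors was read as CAGACA.
Col1a2: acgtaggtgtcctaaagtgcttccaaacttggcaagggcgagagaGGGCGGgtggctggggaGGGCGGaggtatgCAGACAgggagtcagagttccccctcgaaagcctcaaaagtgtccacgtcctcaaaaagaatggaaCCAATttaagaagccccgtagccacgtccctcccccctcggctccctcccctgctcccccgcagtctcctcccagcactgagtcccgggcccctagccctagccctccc
Col3a1: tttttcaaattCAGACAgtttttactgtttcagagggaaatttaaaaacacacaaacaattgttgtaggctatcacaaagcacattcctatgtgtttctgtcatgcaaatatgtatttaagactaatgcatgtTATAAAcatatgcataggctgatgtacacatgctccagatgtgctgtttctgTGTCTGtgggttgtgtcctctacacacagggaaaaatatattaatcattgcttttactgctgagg
Pcolce2: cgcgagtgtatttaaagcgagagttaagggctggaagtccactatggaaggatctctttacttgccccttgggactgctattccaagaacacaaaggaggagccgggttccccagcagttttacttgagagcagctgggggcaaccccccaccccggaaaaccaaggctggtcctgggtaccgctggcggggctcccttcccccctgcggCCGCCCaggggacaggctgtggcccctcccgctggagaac
The Col1a2 window held 1 NF-Y motif, 2 Sp motifs and 1 Smad motif, the Col3a1 window 1 TBP motif and 2 Smad motifs, and the Pcolce2 window 1 Sp motif. Of 32851 windows of this length, 33.8% held the NF-Y motif, 32.7% the Sp motif, 12.4% the TBP motif and 17.1% the Smad motif. The windows differed in base composition, with 62% G and C for Col1a2, 35.2% for Col3a1 and 61.2% for Pcolce2.

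Among the 10 genes, Col5a3 gave the highest mean level per length of exon in each of the 6 groups. In CD mice at 8 weeks it reached 51.4 ± 22.4 CPM per kb (SD, n = 6), ahead of Col3a1 at 26.6 ± 10.01, Lox at 21.6 ± 15.5, Col5a1 at 16.1 ± 3.59, Col5a2 at 12.1 ± 2.22 and Col1a2 at 11.4 ± 2.66 CPM per kb. Col1a1 followed at 3.30 ± 1.65 CPM per kb, and Pcolce, Mrc2 and Pcolce2 were under 1 CPM per kb, at 0.944 ± 0.368, 0.798 ± 0.385 and 0.585 ± 0.335. Each of these neighbours in the order had overlapping mice except Col1a2 over Col1a1 and Col1a1 over Pcolce. In HFD mice at 20 weeks the same genes stood closer together, from Col5a3 at 91.9 ± 16.5 and Col3a1 at 74.0 ± 26.0 to Pcolce2 at 8.21 ± 2.63 CPM per kb. These levels rest on exon lengths of GENCODE vM21, whereas the authors counted on an earlier release. The length of a gene was the union of all its annotated exons: 6.81 kb for Col5a3, 9.82 kb for Col3a1 and 12.4 kb for Col1a2. The order depends on these lengths. In plain CPM Col3a1 had a higher mean than Col5a3 in HFD mice at 20 weeks (726 and 626), whereas Col5a3 had the highest in the other groups.

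Together the 6 collagen genes took 0.0767 to 0.146% of all reads in CD mice at 8 weeks and 0.141 to 0.358% in HFD mice. At 20 weeks their shares were 0.0361 to 0.139% in CD and 0.159 to 0.307% in HFD mice, and at 34 weeks 0.153 to 0.333% and 0.108 to 0.196%. The ranges were separate at 20 weeks and overlapped at 8 and 34 weeks. Within this sum Col5a3 made up 41.6 ± 10.8% of the CPM per kb in CD mice at 8 weeks and 48.9 ± 14.2% (n = 8) at 34 weeks. On HFD its share was 49.6 ± 5.41% at 8, 31.9 ± 3.62% at 20 and 28.5 ± 4.39% at 34 weeks. Col1a1 had the smallest share in CD mice at 8 and 20 weeks, 2.81 ± 1.55% and 2.46 ± 1.24%, and 10.2 ± 2.59% in HFD mice at 20 weeks. Shares of a sum are not independent of each other, depend on the same exon lengths and were not tested.

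**Figure D1:**
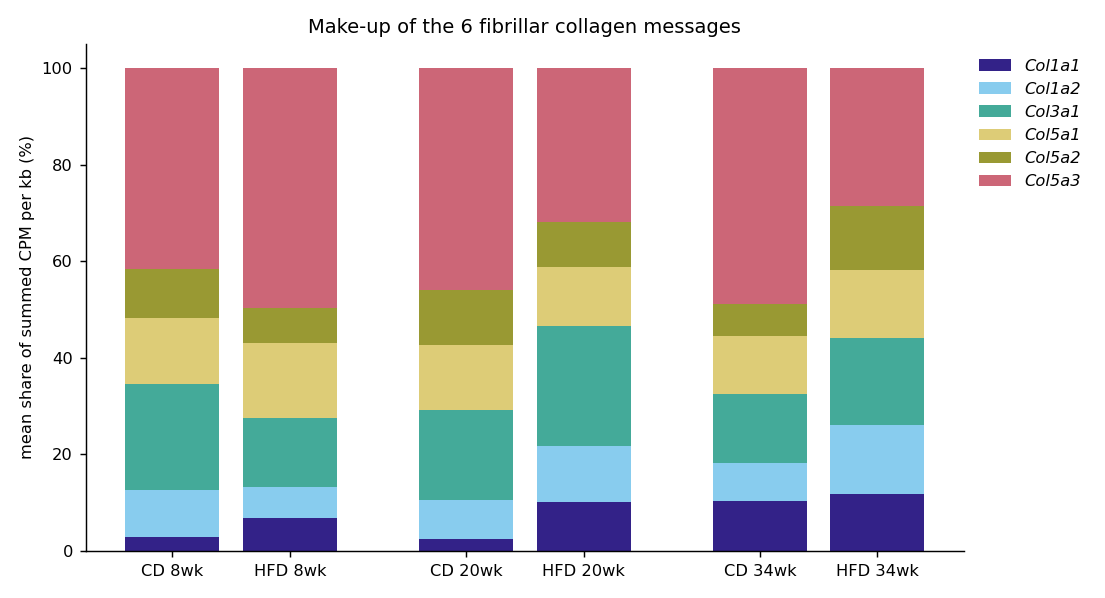
Stacked bars give, for each of the 6 groups (CD and HFD at 8, 20 and 34 weeks), the mean over mice of each collagen gene's percentage of the summed CPM per kb of the 6 genes. Col5a3 is the widest band in every group, and it is narrower in the HFD bars at 20 (31.9%) and 34 weeks (28.5%) than in the CD bars (46.0% and 48.9%).

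After 8 weeks, 7 of the 10 genes were upregulated by HFD and none was downregulated. The changed genes were Col1a1, the 3 type V chains, both procollagen processing enhancers and Mrc2, while Col1a2, Col3a1 and Lox did not pass the test. Among all genes tested 29.8% were called higher, and the median difference of the 10 genes was 1.53 on the log2 scale against 0.11 for all genes. In 4 of them, Col5a1, Col5a3, Pcolce2 and Mrc2, each HFD mouse was above every CD mouse, which held for 15.7% of the genes tested. The libraries of the CD mice at this time had 10562845 to 12611013 reads on genes and those of the HFD mice 13201234 to 15480388, without overlap, and the part of depth in these differences was not tested.

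Pcolce2 and Mrc2 were low in CD mice and higher in HFD mice. The CD values rested on few reads, 13 to 69 per mouse for Pcolce2 and 27 to 106 for Mrc2. Pcolce2 had a lowest, median and highest value of 1.12, 2.23 and 5.63 CPM in CD and 15.7, 77.2 and 138 CPM in HFD mice, a log2 fold change of 4.15 ± 0.52 (SE, adjusted p = 6.91e-07). Mrc2 had 2.38, 4.596 and 8.64 CPM in CD and 20.8, 115 and 258 CPM in HFD mice, a log2 fold change of 4.01 ± 0.71 (adjusted p = 5.57e-05). For both genes the lowest HFD mouse, mouse 2, was above the highest CD mouse, and the HFD mice themselves were widely spread.

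The type V genes rose as a group. Col5a3 had 156, 349 and 604 CPM in CD and 645, 1094 and 1369 CPM in HFD mice (log2 fold change 1.62 ± 0.30, adjusted p = 9.44e-05). Col5a1 had 104, 133 and 186 CPM in CD and 219, 411 and 554 CPM in HFD mice (1.52 ± 0.29, adjusted p = 0.00012). Neither gene overlapped between the diets. Col5a2 had 94.1, 111 and 154 CPM in CD and 123, 216 and 315 CPM in HFD mice (0.86 ± 0.21, adjusted p = 0.00145), with HFD mouse 2 inside the CD range.

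The type I chains were unequal at this time. Col1a1 had 9.46, 20.9 and 41.1 CPM in CD and 35.9, 134 and 350 CPM in HFD mice, a log2 fold change of 2.55 ± 0.55 (adjusted p = 0.000461) in which 5 of 6 HFD mice were above every CD mouse. Col1a2 had 99.6, 136 and 190 CPM in CD and 158, 224 and 335 CPM in HFD mice, and its log2 difference of 0.70 ± 0.34 did not pass (adjusted p = 0.0888). Col1a2 was called when each time was fitted on its own (adjusted p = 0.00662) and without CD mouse 5 of 34 weeks (adjusted p = 0.0388), whose spread enters the shared fit. Col3a1 had 146, 260 and 398 CPM in CD and 227, 441 and 785 CPM in HFD mice, with a log2 difference of 0.76 ± 0.42 (adjusted p = 0.136) and overlap of the diets. Pcolce had 1.79, 3.57 and 5.25 CPM in CD and 4.09, 13.3 and 26.5 CPM in HFD mice (1.55 ± 0.39, adjusted p = 0.00195), again with only HFD mouse 2 inside the CD range.

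Lox gave 59.6, 69.7 and 251 CPM in CD and 65.9, 150 and 213 CPM in HFD mice at 8 weeks, with a log2 difference of 0.62 ± 0.36 (adjusted p = 0.162). The highest value was that of CD mouse 6, and without it the difference was 0.92 and passed the test (adjusted p = 0.0335).

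**Figure D2:**
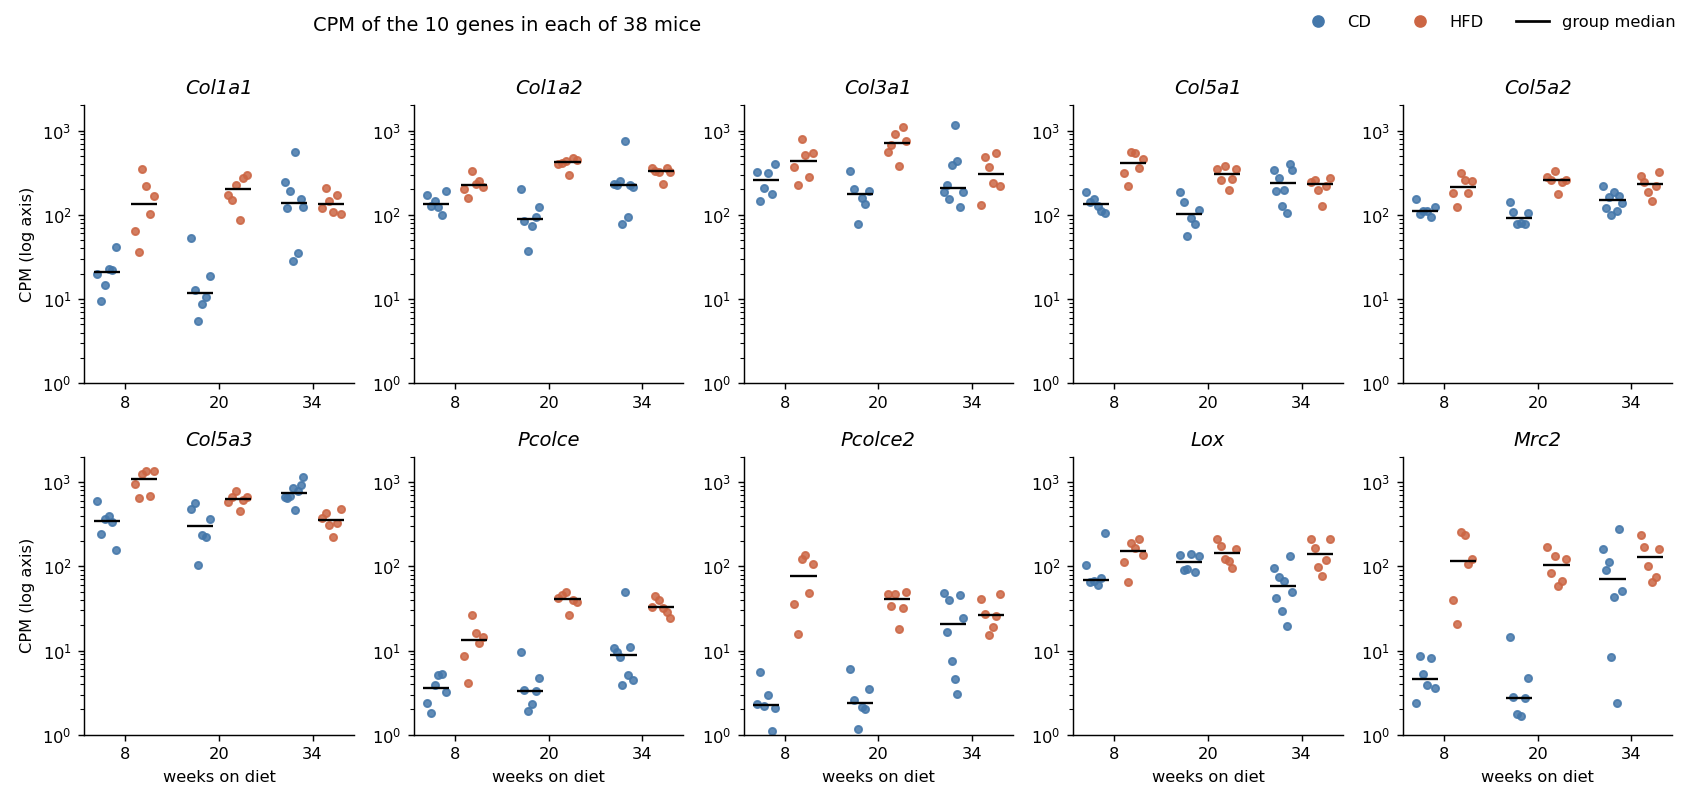
Each panel plots 1 gene as CPM on a log axis, with 1 point per mouse, CD in blue and HFD in orange at 8, 20 and 34 weeks, and a bar at the group median. Mrc2, Pcolce2 and Col1a1 were low in the CD mice of 8 and 20 weeks (medians of 2.23 to 20.9 CPM), whereas at 34 weeks the CD mice spread from 2.37 to 279 CPM for Mrc2.

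At 20 weeks 9 of the 10 genes were upregulated by HFD, and only Lox was not called. All genes tested gave 38.3% called higher and a median difference of 0.14, against a median of 2.10 for the 10 genes. In 8 of the 9, all but Col5a3, each HFD mouse was above every CD mouse, as in 26.1% of the genes tested. The count of 9 held without any 1 of the 38 mice.

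The largest differences at this time were those of Mrc2 and Col1a1. Mrc2 had 1.68, 2.75 and 14.3 CPM in CD and 58.1, 103 and 170 CPM in HFD mice (log2 fold change 4.44 ± 0.71, adjusted p = 4.09e-06). Col1a1 had 5.52, 11.7 and 52.3 CPM in CD and 86.3, 201 and 301 CPM in HFD mice (3.66 ± 0.55, adjusted p = 1.6e-06). In both genes CD mouse 1 was the highest of its group and still below all HFD mice.

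Col1a2, which was not called at 8 weeks, had 37.6, 89.5 and 202 CPM in CD and 297, 421 and 479 CPM in HFD mice at 20 weeks (2.15 ± 0.34, adjusted p = 2.79e-06). Col3a1 had 78.4, 174 and 330 CPM in CD and 376, 712 and 1096 CPM in HFD mice (2.04 ± 0.42, adjusted p = 0.000116). Both type V partners were separate as well, with Col5a1 at 56.1, 102 and 187 CPM in CD and 197, 308 and 374 CPM in HFD mice (1.495 ± 0.29, adjusted p = 5.14e-05), and Col5a2 at 77, 92.7 and 143 CPM against 174, 259 and 335 CPM (1.40 ± 0.21, adjusted p = 1.55e-06). For Col5a3 the groups met at their edges, with 105, 298 and 558 CPM in CD and 455, 634 and 791 CPM in HFD mice (1.11 ± 0.30, adjusted p = 0.00215).

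The processing enhancers were separate between the diets. Pcolce had 1.91, 3.35 and 9.59 CPM in CD and 26.7, 41.1 and 50.2 CPM in HFD mice (3.11 ± 0.39, adjusted p = 1.35e-07). Pcolce2 had 1.18, 2.35 and 6.02 CPM in CD and 18.2, 40.4 and 49.5 CPM in HFD mice (3.34 ± 0.52, adjusted p = 2.48e-06). Lox was measured at 85.8, 113 and 142 CPM in CD and 95.7, 143 and 210 CPM in HFD mice, with a log2 difference of 0.36 ± 0.36 (adjusted p = 0.412, 95% interval from -0.38 to 1.09) and 3 of 6 HFD mice above every CD mouse.

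None of the 10 diet differences was called different between 20 and 8 weeks, against 4.49% of all genes tested, and 3 had an unadjusted p under 0.05. The estimates moved both ways, with Pcolce 1.57 ± 0.55 and Col1a2 1.46 ± 0.47 larger at 20 weeks (adjusted p = 0.0777 and 0.0627) and Pcolce2 0.80 ± 0.73 smaller (value -0.80, adjusted p = 0.475). edgeR on the whole reads called none either, whereas weighting the libraries by their quality called 4, for which the share of all genes is not given.

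At 34 weeks the diet difference was smaller than at 20 weeks by estimate in most of the 10 genes. That of Lox was larger (1.32 against 0.36), and that of Col5a3 had turned in sign (-1.10 against 1.11). Col5a2, Pcolce and Lox were called higher in HFD mice, Col5a3 was called lower, and 6 genes did not pass the test. Among all genes tested 27.5% were called higher and 15.7% lower, so that the counts of 3 higher and 1 lower were near these shares. In no gene of the 10 was each HFD mouse above every CD mouse, a pattern that 1.47% of the genes tested showed, and the median difference of the 10 genes was 0.62 against 0.07 for all genes.

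**Figure D3:**
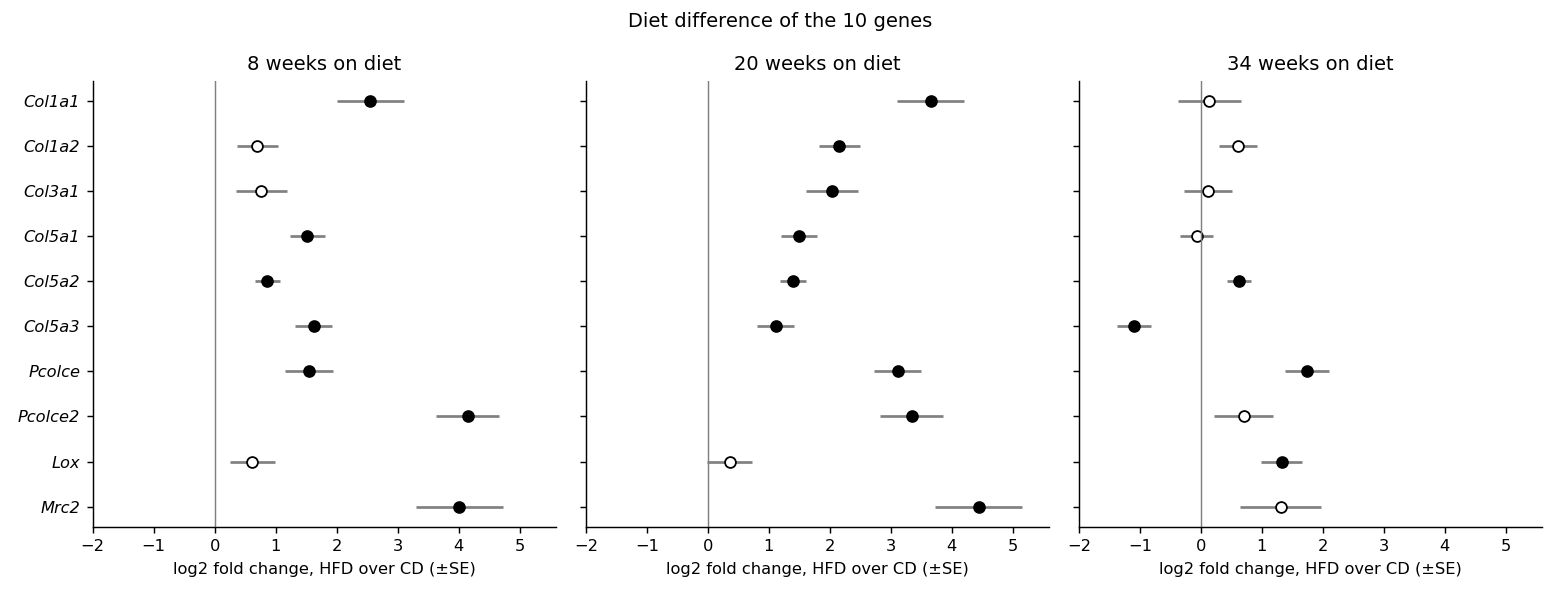
Points give the log2 fold change of HFD over CD for each gene, with bars of 1 SE, in a panel each for 8, 20 and 34 weeks, and filled points have an adjusted p under 0.05. At 8 and 20 weeks all 10 points lie to the right of 0, whereas at 34 weeks Col5a3 is at -1.10 and Col1a1, Col3a1 and Col5a1 lie within 0.14 of 0.

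Col5a3 turned from higher to lower. Its lowest, median and highest values were 467, 742 and 1137 CPM in CD and 224, 352 and 483 CPM in HFD mice, a log2 fold change of -1.10 ± 0.28 (adjusted p = 0.00249), with 5 of 6 HFD mice below every CD mouse. The CD mouse with the lowest value was mouse 5, and without it the fold change was -1.20 (adjusted p = 0.000936). Col5a1, a chain of the same collagen type, had 104, 235 and 405 CPM in CD and 127, 234 and 270 CPM in HFD mice, with a difference of -0.07 ± 0.27 (adjusted p = 0.857). Col5a2 had 99.7, 151 and 217 CPM in CD and 145, 232 and 325 CPM in HFD mice and was called higher (0.63 ± 0.20, adjusted p = 0.01), which is under a 2-fold change and was not called under library weights (0.43, adjusted p = 0.0867). The diet difference thus ran in opposite directions for Col5a3 and Col5a2 in the same mice.

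Lox was called higher at this time, with 19.4, 57.7 and 131 CPM in CD and 76.2, 141 and 213 CPM in HFD mice (1.32 ± 0.34, adjusted p = 0.00246). The medians of its HFD groups were 150, 143 and 141 CPM at 8, 20 and 34 weeks, whereas those of its CD groups were 69.7, 113 and 57.7 CPM. That its diet difference at 34 weeks was unlike those at 20 and 8 weeks was not shown (0.97 ± 0.50 and 0.70 ± 0.50 larger, adjusted p = 0.201 and 0.295). Pcolce had 3.86, 8.96 and 50.1 CPM in CD and 24.5, 32.6 and 43.9 CPM in HFD mice (1.74 ± 0.36, adjusted p = 0.000423). The highest CD value belonged to mouse 5, the only CD mouse above 11.1 CPM, and without it all HFD mice were above all other CD mice (2.08, adjusted p = 2.66e-06).

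Of the 6 genes that did not pass, Col5a1 is given above. The others had wide CD groups, as did Pcolce (3.86 to 50.1 CPM), which was called. Col1a1 had 28.6, 138 and 555 CPM in CD and 101, 133 and 210 CPM in HFD mice, a difference of 0.14 ± 0.51 (adjusted p = 0.845, 95% interval from -0.91 to 1.18). Mrc2 had 2.37, 70.2 and 279 CPM in CD and 64.3, 131 and 235 CPM in HFD mice (1.31 ± 0.67, adjusted p = 0.107), and it was called without CD mouse 7, the highest (1.67, adjusted p = 0.0348). Pcolce2 had 3.05, 20.5 and 47.8 CPM in CD and 15.5, 26.4 and 46.4 CPM in HFD mice (0.70 ± 0.48, adjusted p = 0.239). In all 3 genes CD mice 4 and 6 were near the CD mice of the earlier times, and for Pcolce2 mouse 5 was too.

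Col1a2 had 78.6, 226 and 755 CPM in CD and 234, 328 and 363 CPM in HFD mice (0.61 ± 0.31, adjusted p = 0.114). The value of 755 CPM was that of CD mouse 5, and without it Col1a2 was called higher (0.87, adjusted p = 0.00761). Col3a1 had 124, 206 and 1170 CPM in CD, the highest again in mouse 5, and 130, 305 and 545 CPM in HFD mice (0.12 ± 0.39, adjusted p = 0.828). Without mouse 5 the difference of Col3a1 was 0.41 and did not pass (adjusted p = 0.33), and 4 genes in all were called higher. The direction of Col1a1, Col3a1 and Col5a1 at 34 weeks is not settled, since it turned under other settings or without single mice.

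The change of the diet difference (HFD minus CD, with its sign) from 20 to 34 weeks was tested directly. For 7 of the 10 genes this signed difference was called lower at 34 than at 20 weeks, against 6.31% of all genes tested. For none was it called higher. That of Col5a3 did not shrink but turned, from 1.11 to -1.10. The drop was largest for Col1a1 at -3.52 ± 0.75 (adjusted p = 0.00362), Mrc2 at -3.13 ± 0.97 (adjusted p = 0.0345), Pcolce2 at -2.64 ± 0.71 (adjusted p = 0.0152) and Col5a3 at -2.21 ± 0.41 (adjusted p = 0.00106). Col3a1, Col5a1 and Col1a2 dropped by 1.92, 1.56 and 1.54 on the log2 scale (adjusted p = 0.028, 0.0107 and 0.0276). Pcolce at -1.37 ± 0.53 and Col5a2 at -0.77 ± 0.29 did not pass (adjusted p = 0.088 and 0.0777).

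Not all of these calls were firm. Without CD mouse 3 of 20 weeks, the lowest mouse of its group in Col1a1, Col1a2, Col3a1, Col5a1, Col5a3, Pcolce and Pcolce2, 4 genes were called in place of 7, with Col1a2, Col3a1 and Mrc2 lost (adjusted p = 0.0636, 0.0619 and 0.0624). Col1a2 was also lost without CD mouse 4 of 20 weeks (adjusted p = 0.0526), and Col3a1 without HFD mice 3 or 5 of 20 weeks or HFD mouse 1 of 34 weeks (adjusted p = 0.0521, 0.0503 and 0.0507). For Mrc2 the call was lost without any 1 of 13 of the 38 mice: CD mice 3, 4 and 5 and HFD mice 1, 3 and 6 of 20 weeks, and CD mice 1, 2, 3 and 7 and HFD mice 3, 4 and 5 of 34 weeks (adjusted p from 0.0513 to 0.0655). Between 8 and 34 weeks 5 signed diet differences were called lower, against 15.9% of all genes tested, and that of Col5a3 again turned (1.62 to -1.10). The 5 were Pcolce2 (-3.44 ± 0.71, adjusted p = 0.000581), Col5a3 (-2.72 ± 0.41, adjusted p = 3.71e-05), Mrc2 (-2.70 ± 0.97, adjusted p = 0.0352), Col1a1 (-2.42 ± 0.75, adjusted p = 0.0153) and Col5a1 (-1.58 ± 0.40, adjusted p = 0.00322). Of these Mrc2 was lost without any 1 of 12 mice, CD mice 1 and 6 and HFD mice 3, 4 and 6 of 8 weeks, CD mice 1, 2, 3 and 7 and HFD mice 3, 4 and 5 of 34 weeks (adjusted p from 0.0514 to 0.0687).

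The course over time was then taken within each diet. Depth differed between times as well: the CD libraries of 20 weeks (13091365 to 14292115 reads on genes) were all deeper than those of 8 weeks and of 34 weeks (9275711 to 12433584), and the HFD libraries of 34 weeks (10714545 to 12271651) were all shallower than those of 8 weeks and of 20 weeks (13159018 to 14961360). The part of depth in the changes over time was not tested. Between 8 and 20 weeks no gene of the 10 was called changed in CD mice, against 3.58% of all genes tested. edgeR on the whole reads called none either, and none had an unadjusted p under 0.05. From 20 to 34 weeks 8 rose in CD mice and Lox fell, against 41.1% of all genes called higher and 21.4% called lower, so that the CD mice of 34 weeks differed from younger ones in a large part of all genes. The rises were largest for Mrc2 (3.42 ± 0.67, adjusted p = 4.98e-05), Col1a1 (3.09 ± 0.51, adjusted p = 5.67e-06) and Pcolce2 (2.24 ± 0.48, adjusted p = 0.00018). Col5a3 rose by 1.39 ± 0.28, Col1a2 by 1.19 ± 0.31, Col5a1 by 1.11 ± 0.27, Pcolce by 1.11 ± 0.36 and Col5a2 by 0.60 ± 0.20 on the log2 scale (adjusted p = 8.9e-05, 0.00145, 0.000646, 0.00847 and 0.00868). Lox changed by -1.02 ± 0.34 (adjusted p = 0.00969), with 6 of 8 mice below every CD mouse of 20 weeks, and was not called under library weights (-0.62, adjusted p = 0.0654). Col3a1 had a difference of 0.71 ± 0.39 and did not pass (adjusted p = 0.114).

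Against the CD mice of 8 weeks, 6 genes were higher at 34 weeks, among 40.1% of all genes tested: Mrc2 (3.06 ± 0.67, adjusted p = 0.000184), Col1a1 (2.61 ± 0.51, adjusted p = 5.44e-05), Pcolce2 (2.31 ± 0.48, adjusted p = 0.000118), Col5a3 (1.21 ± 0.28, adjusted p = 0.000397), Pcolce (1.20 ± 0.36, adjusted p = 0.00448) and Col5a1 (0.74 ± 0.27, adjusted p = 0.0174). For Mrc2, Col1a1 and Pcolce2, 6 of 8 mice at 34 weeks were above every CD mouse of 8 weeks. The values without mouse 5 were close, with 2.31 for Col1a1 and 1.31 for Col5a3 (adjusted p = 0.000149 and 0.000212), and for Pcolce 0.87 (adjusted p = 0.0108). Lox had a difference of -0.71 ± 0.34 and did not pass (adjusted p = 0.0667), but it was called lower under TMM and median-of-ratios scaling, in edgeR, with the mouse number as a block and without CD mouse 4 of 8 weeks or CD mice 1 or 7 of 34 weeks (-0.82 to -0.89, adjusted p from 0.0192 to 0.0456). Col1a2 differed by 0.58 ± 0.31 (adjusted p = 0.102) and was called higher with library weights, in edgeR and without CD mice 4 or 6 of 34 weeks (adjusted p from 0.00621 to 0.04).

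In HFD mice few of the 10 genes were called changed with time, which for most counts was not unlike all genes tested. The 2 called higher from 8 to 20 weeks and the 2 called lower from 8 to 34 weeks were near the shares of all genes. The 2 called lower from 20 to 34 weeks were not under that share. Only the 1 called higher from 8 to 34 weeks was below it. From 8 to 20 weeks Pcolce rose by 1.66 ± 0.39 (adjusted p = 0.00152), without overlap of the times, and Col1a2 by 0.84 ± 0.34 (adjusted p = 0.047), against 21.2% of all genes called higher. The call of Col1a2 was at the edge and was lost in 20 of the 38 fits that left out 1 mouse (adjusted p from 0.0501 to 0.103). From 20 to 34 weeks Col3a1 fell by 1.21 and Col5a3 by 0.82 on the log2 scale (adjusted p = 0.0277 and 0.0369), against 12.5% of all genes called lower. Both calls depended on single mice: Col3a1 was lost without HFD mice 3 or 5 of 20 weeks or 1, 4 or 6 of 34 weeks (adjusted p from 0.0531 to 0.0864), and Col5a3 without HFD mice 2, 3 or 6 of 20 weeks or 3, 4 or 5 of 34 weeks (adjusted p from 0.0577 to 0.108). From 8 to 34 weeks Pcolce was higher (1.40 ± 0.39, adjusted p = 0.00305), among 31.7% of all genes, and Col5a3 (-1.51 ± 0.30, adjusted p = 0.00012) and Col5a1 (-0.85 ± 0.29, adjusted p = 0.0141) were lower, among 20.8%. For Col5a3 each HFD mouse of 34 weeks was below every HFD mouse of 8 weeks, and Col5a1 was not called without HFD mouse 4 of 34 weeks (-0.70, adjusted p = 0.0522).

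Ratios of paired genes within a mouse do not depend on how the libraries were scaled apart from the added 1. They were tested by an exact two-sided permutation test over mice, adjusted over 12 tests (4 ratios at 3 times). The log2 ratio of Col1a1 to Col1a2, the chains of type I collagen, was -2.76 ± 0.61 (SD) in CD and -0.90 ± 0.89 in HFD mice at 8 weeks, a difference of 1.86 (p = 0.00216, adjusted p = 0.00433). At 20 weeks it was -2.63 ± 0.39 and -1.12 ± 0.44, a difference of 1.504 (p = 0.00216, adjusted p = 0.00433). No CD mouse overlapped an HFD mouse at either time, and this p is the smallest that 6 against 6 mice can give. At 34 weeks the ratio was -0.73 ± 0.51 in CD (n = 8) and -1.20 ± 0.38 in HFD mice (n = 6), and the difference of -0.47 did not pass (exact p = 0.0819, adjusted p = 0.123).

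Col1a1 against Col3a1 followed the same course, with differences of 1.79 and 1.62 at 8 and 20 weeks (adjusted p = 0.00433 for both, exact permutation) and 0.02 at 34 weeks (adjusted p = 0.972). At 34 weeks the CD mice were split: mice 4 and 6 were at -3.74 and -3.60, within the range of the CD mice of 8 weeks, and the other 6 between -1.08 and 0.37. The ratio of Col5a3 to Col5a1 did not pass at 8 weeks (difference 0.11, adjusted p = 0.723) or 20 weeks (-0.38, adjusted p = 0.115). At 34 weeks it was 1.73 ± 0.72 in CD and 0.70 ± 0.11 in HFD mice, a difference of -1.03 without overlap (exact p = 0.000666, adjusted p = 0.00433), the smallest p that 6 against 8 mice can give. Pcolce2 against Pcolce was higher in HFD mice at 8 weeks, 2.26 ± 0.54 against -0.34 ± 0.92 in CD mice (difference 2.60, exact p = 0.00216, adjusted p = 0.00433), and did not pass at 20 weeks (0.23, adjusted p = 0.263) or 34 weeks (-1.04, adjusted p = 0.287). The last difference was -1.61 and passed without CD mouse 5, whose ratio was -3.21 (exact adjusted p = 0.03).

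**Figure D4:**
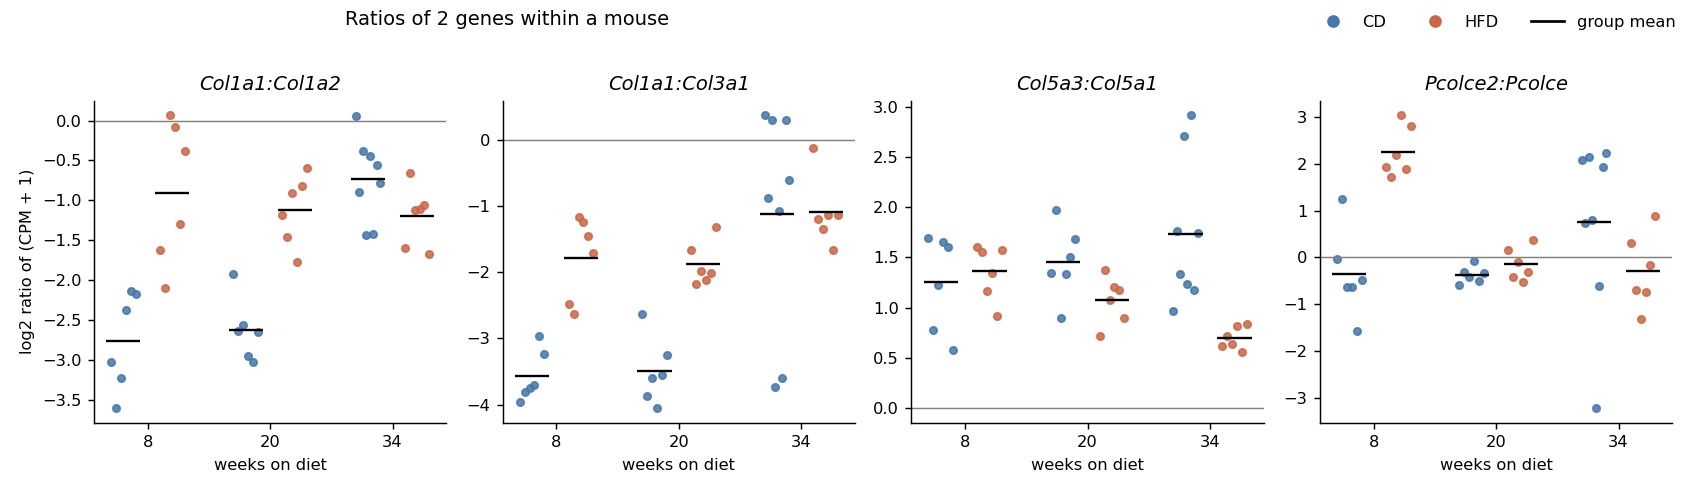
Each panel plots the log2 ratio of (CPM + 1) of 2 genes in each mouse against weeks on diet, CD in blue and HFD in orange, with a bar at the group mean. Both Col1a1 ratios are higher in every HFD mouse than in any CD mouse at 8 and 20 weeks, and the Col5a3 to Col5a1 ratio is lower in every HFD mouse at 34 weeks.

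Mice of the same group differed together in most of these genes. With group means taken out, 42 of the 45 pairs of genes had a correlation above 0 over the 38 mice, with a median of 0.558. The tightest pairs were Col1a1 with Col1a2 (r = 0.86, rho = 0.759), Pcolce2 with Mrc2 (r = 0.846, rho = 0.827), Col1a1 with Pcolce (r = 0.843, rho = 0.722) and Col5a1 with Pcolce2 (r = 0.835, rho = 0.844). Col3a1 stood off from Pcolce2 (r = -0.199), Mrc2 (r = -0.172) and Lox (r = -0.0585), which are the 3 pairs below 0. These are descriptions over mice that share library depth and cell makeup.

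The genes most like the mean of the 10 were sought among the other genes tested. Over all 38 mice the first 10 were Col6a3 (r = 0.959), Mtmr6 (0.955), Map1a (0.946), Dclk1 (0.944), Pi4k2b (0.943), Akirin1 (0.94), Fam49a (0.938), Eya2 (0.937), Rab22a (0.936) and Prss23 (0.936). With group means taken out they were Col6a2 (r = 0.936), Col6a1 (0.917), Ptgfrn (0.911), Col6a3 (0.896), Akirin1 (0.895), Dclk1 (0.894), Calu (0.887), Gmfb (0.883), Rab22a (0.88) and Mdfic (0.879). Col6a1, Col6a2 and Col6a3 encode the chains of type VI collagen, a beaded-filament collagen of fat.

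Markers of other cell types of the fat pad were also called higher on HFD, in numbers that differed by cell type and time. Of 10 fibroblast and progenitor markers, such as Pdgfra and Cd34, 8 passed the filter, and HFD raised 7, 8 and 5 of them at 8, 20 and 34 weeks, against 29.8%, 38.3% and 27.5% of all genes tested. Their sum was 27.1 to 72.6 CPM in CD and 43.6 to 203 CPM in HFD mice at 8 weeks, 26.2 to 99.7 and 156 to 436 CPM at 20 weeks, and 49.9 to 196 and 116 to 271 CPM at 34 weeks. From 8 to 34 weeks on CD 7 of the 8 rose, against 40.1% of all genes. Of 7 macrophage markers measured, HFD raised 6, 7 and 7 at the same times. Their sum was 183 to 1130 CPM in CD and 847 to 2688 CPM in HFD mice at 8 weeks, 305 to 2405 and 3770 to 7335 CPM at 20 weeks, and 1017 to 11001 and 4589 to 14129 CPM at 34 weeks. CD mouse 5 of 34 weeks had the highest fibroblast and macrophage sums of its group, 196 and 11001 CPM, and the lowest adipocyte sum, 32018 CPM.

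Endothelial markers were raised in 7, 6 and 7 of 7, mural markers in 5, 5 and 3 of 7 tested, and mesothelial markers in 2, 0 and 0 of 3 tested, against the same shares of all genes. The mural count at 34 weeks was not far from the 27.5% of all genes. Their sums over all mice were 25.4 to 398, 46.1 to 546 and 7.49 to 71.5 CPM. From 20 to 34 weeks the diet difference was called lower in 4 of 8 fibroblast and 1 of 7 mural markers, against 6.31% of all genes tested. It was called lower in none of the macrophage, endothelial and mesothelial markers tested. The median change was -1.51 for fibroblast, -0.735 for macrophage, -0.675 for mural, -0.519 for mesothelial and 0.0451 for endothelial markers. The 10 genes had a median change of -1.74 and all genes -0.0909. Of the adipocyte markers 2, 8 and 8 of 10 were lower and 1, 1 and 0 higher in HFD mice, against 15.1%, 18.7% and 15.7% of all genes called lower. No marker of these lists was at 0 in all mice of a group except Cnn1, a smooth muscle gene, in HFD mice of 34 weeks. The part of such cells in the results was not tested, and in bulk RNA fewer cells of a type and less RNA per cell cannot be told apart.

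With group means taken out, the fibroblast marker sum went most closely with Col1a1 (r = 0.784, rho = 0.749, r = 0.72 without the 2 mice farthest from the median of the sum) and Pcolce (r = 0.738, rho = 0.733, 0.683 without them). Over all 38 mice r and rho were lowest for Col5a3 (r = 0.228, rho = 0.11), whereas without those 2 mice r was lowest for Lox (0.118), followed by Col5a3 (0.18). The macrophage sum gave 0.763 for Col1a1, 0.729 for Pcolce and 0.0184 for Col5a3. With the adipocyte marker sum r was negative for every gene, from -0.623 for Col1a1 to -0.0827 for Col5a3. Pcolce, Col1a2 and Col3a1 were at -0.576, -0.529 and -0.499. Without the 2 mice farthest from the median of the adipocyte sum, r was -0.699 for Col1a1 and -0.195 for Col5a3. Over 30 such relations, n = 38 mice each, no test was made.

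The rest of the collagen pathway was read from 75 further genes in 7 lists, of which 43 passed the filter. At 8, 20 and 34 weeks 25, 35 and 15 of the 43 were called higher in HFD mice and 1 was called lower at each time. Over all genes tested 29.8%, 38.3% and 27.5% were called higher and 15.1%, 18.7% and 15.7% lower, so that the count of 15 at 34 weeks was near the share of all genes. The median differences of the 43 were 0.60, 1.09 and 0.38 on the log2 scale, against 0.11, 0.14 and 0.07 for all genes. The counts of single lists that follow are in the same order of times and stand against the same shares. The 5 other fibrillar collagens (Col2a1, Col11a1, Col11a2, Col24a1 and Col27a1) did not pass the filter, and Col11a2 had the highest single value among them, 7.05 CPM.

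**Figure D5:**
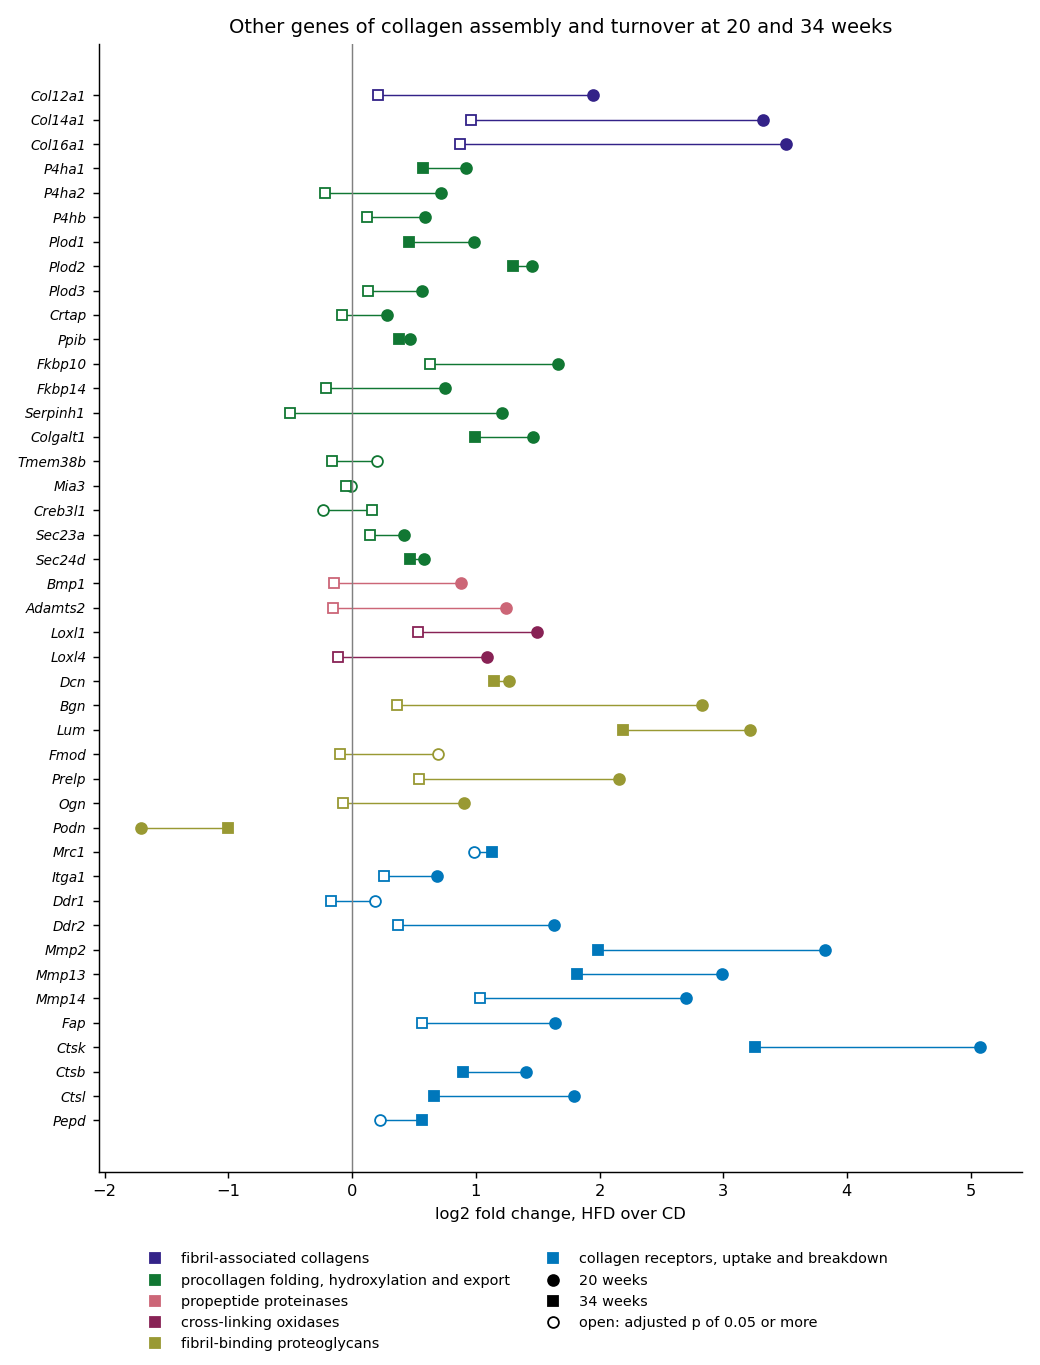
For the 43 pathway genes tested, circles give the log2 fold change of HFD over CD at 20 weeks and squares that at 34 weeks, coloured by list, and open marks have an adjusted p of 0.05 or more. Most squares lie to the left of their circles, and Podn is the only gene called lower, at -1.71 and -1.004.

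The fibril-associated collagens, which coat fibrils, rose on HFD in 3 of 3 tested genes at 8 and 20 weeks and in none at 34 weeks. Col16a1 had the third largest rise of the pathway at 20 weeks (3.51 ± 0.57, adjusted p = 5.21e-06). Of 17 folding, hydroxylation and export genes 10, 14 and 6 rose and none fell, the last count again near the 27.5% of all genes. The propeptide proteinases that passed were Adamts2, which removes N-propeptides, and Bmp1, which removes C-propeptides. Adamts2 was called at 8 and 20 weeks (0.95 ± 0.25 and 1.24 ± 0.25) and Bmp1 at 20 weeks (0.88 ± 0.24), and neither passed at 34 weeks (-0.15 for both). In both the diet difference was called smaller at 34 than at 20 weeks (-1.39 and -1.03, adjusted p = 0.00868 and 0.0428). The oxidases Loxl1 and Loxl4, relatives of Lox, were called at 20 weeks (1.49 ± 0.26 and 1.09 ± 0.33), Loxl4 also at 8 weeks (1.49 ± 0.33), and neither at 34 weeks (0.53 and -0.12), the time at which Lox was called.

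Of 7 proteoglycans that bind fibrils 3, 5 and 2 rose and Podn, podocan, fell at each time (-2.15 ± 0.35, -1.71 ± 0.35 and -1.004 ± 0.33). The counts of 3 and 2 at 8 and 34 weeks were not far from the shares of all genes called higher (29.8% and 27.5%). Of 12 receptors and breakdown genes 7, 9 and 7 rose and none fell. Ctsk, cathepsin K, a lysosomal collagenase that macrophages also express, had the largest rise of the pathway at 20 weeks (5.08 ± 0.61, adjusted p = 7.94e-08), and it was also called at 8 and 34 weeks (2.18 ± 0.61 and 3.26 ± 0.57). Mmp2, gelatinase A, was called at 20 and 34 weeks (3.82 ± 0.53 and 1.99 ± 0.50) and not at 8 weeks (1.28 ± 0.53). Mrc1, the macrophage mannose receptor and a relative of Mrc2, was called at 34 weeks only (1.13 ± 0.44), with 1.04 and 0.99 at 8 and 20 weeks.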

How the data were processed

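CPM values of 29132 genes were deposited by the authors with 1 column per mouse, in which 3 technical replicates had been merged. Per the methods and the submitters' notes, reads were aligned to mm10 with STAR (versions 2.5 and 2.5.2b are named), counted with featureCounts of Subread 1.5.1 per gene on merged GENCODE vM2 exons, and genes without an Entrez identifier were dropped. Strand setting of the counting was not given in the sources used here. Every column sums to 1000000 and all values (100%) are whole reads within 0.1 reads, so no TMM factor is visible, and whole reads were recovered for edgeR 4.0.16. Reads on genes were 9275711 to 15480388 per mouse, and precision from reads covers counting error only. No 2 of 103 pairs of mice in a group agreed within sampling noise (smallest chi-square per degree of freedom 9.99).

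The 10 genes, the lists and the tests were chosen with earlier results of these data known. Values were tested as log2(CPM + 1) with limma 3.58.1 (R 4.3.3, empirical Bayes with trend, 6 groups in 1 fit, 32 residual degrees of freedom, two-sided, 10343 genes with a mean above 2.0), and fold changes of low genes are understated on this scale. Ratios were tested with scipy 1.17.1. All 10 genes were named, and pathway genes were named if they were among the 3 largest rises or 3 largest falls at 20 weeks or were called proteinases or oxidases, with Mrc1 and the range of the other fibrillar collagens added after their values were seen. Likeness was Pearson's r to the mean of the standardized values. The fits were tested on simulated data. Alternatives were TMM and median-of-ratios scaling, a pseudocount of 0.1, no filter, a filter at 4.0, each time fitted separately, library weights, edgeR, a 2-fold change, the mouse number as a block and leaving out each mouse. The labels do not say whether equal mouse numbers pair mice, and the main test used no pairing. Of 18 pairs of equal numbers, 8 had a correlation of deviations over 0.1, and 3 correlated best with their own number. P3h1, P3h2, P3h3, P3h4, Col21a1 and Adgre1 were not analysed here.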

Additional observations from a re-analysis of the deposited data

Results flagged for a closer look

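Among 60 groups of mice (10 genes in 6 groups) 2 held a mouse far from the others on the log2(CPM + 1) scale by Dixon's test at 95%, fewer than the 1 in 20 that chance gives. They were CD mouse 5 at 34 weeks for Pcolce, with 50.1 CPM against at most 11.1 CPM in the rest of its group, and HFD mouse 4 at 34 weeks for Col1a2, with 234 CPM against at least 318 CPM in the rest.

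By the test of the difference itself, the diet difference was called different between times for 7 genes. All 7 were called lower from 20 to 34 weeks, against 6.31% of all genes tested. From 8 to 34 weeks 5 were called lower, against 15.9%. Without single mice these counts were 4 to 9 and 4 to 5. The calls of Mrc2 at both steps, and of Col1a2 and Col3a1 from 20 to 34 weeks, were lost without some single mice. From 20 to 34 weeks it changed on the log2 scale by -3.52 for Col1a1, -1.54 for Col1a2, -1.92 for Col3a1, -1.56 for Col5a1, -2.21 for Col5a3, -2.64 for Pcolce2 and -3.13 for Mrc2. From 8 to 34 weeks it changed by -2.42 for Col1a1, -1.58 for Col5a1, -2.72 for Col5a3, -3.44 for Pcolce2 and -2.70 for Mrc2. For Col5a3 the sign of the diet difference also turned, from 1.62 and 1.11 at 8 and 20 weeks to -1.10 at 34 weeks.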

How the results depend on the processing

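Of 3586 refitted values of single genes, 3449 kept their direction and their side of the threshold, 81 lost and 31 gained a call, and 25 turned in sign. Of the 3449, 2796 came from fits that left out 1 mouse. In many of these the mouse was in none of the groups compared, so that the estimate could not change. TMM scaling shifted the median diet difference of all genes by -0.103, -0.207 and -0.0861 at 8, 20 and 34 weeks, and median-of-ratios scaling by -0.110, -0.162 and -0.0855, and no value of the 10 genes turned under either. The filter at 4.0 left 8 of the 10 genes. Genes called higher on HFD numbered 7 to 8 at 8 weeks, 9 at 20 weeks and 3 to 4 at 34 weeks when 1 mouse was left out, and with library weights 10 at 8 weeks, with the filter at 4.0 5, 7 and 2, and with a 2-fold change 6, 9 and 2. The shares of all genes called under these other settings are not given here. The counts under them, here and below, can therefore not be read against the shares of the main test.

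The count of diet differences that changed from 8 to 20 weeks was 0 in the main test, 4 with library weights and 0 to 2 without single mice. From 20 to 34 weeks it was 7, and 4 to 9 without single mice. Genes that changed on HFD from 8 to 20 weeks numbered 2, but 1 without the filter, with the filter at 4.0, with a 2-fold change or with the block, 5 with library weights and 1 to 3 without single mice. On HFD from 20 to 34 weeks the 2 calls became 1 without the filter or with a 2-fold change and 0 to 2 without single mice.

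The mouse number as a replicate block gave 7, 9 and 4 genes higher at 8, 20 and 34 weeks, 6 and 4 changed diet differences from 20 and from 8 to 34 weeks, and lost Mrc2 in both (adjusted p = 0.0732 and 0.0753) and Col5a1 from 8 to 34 weeks on CD (adjusted p = 0.0974). With the block, Mrc2 was called at 34 weeks (1.74, adjusted p = 0.041), Lox was called lower from 8 to 34 weeks on CD (-0.89, adjusted p = 0.0245), as under both scalings and in edgeR (-0.84, -0.82 and -0.84, adjusted p = 0.0238, 0.0257 and 0.0265), against -0.71 (adjusted p = 0.0667) in the main test, and Col3a1 and Col5a1 turned at 34 weeks (-0.16 and 0.17). Of the 18 pairs of equal numbers only 3 correlated best with their own number, and correlations ran from -0.509 to 0.529.

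Differences near 0 turned in sign without passing the test. At 34 weeks Col1a1 was at -0.0676 with library weights, -0.39 in edgeR and -0.16 to 0.44 without single mice, Col3a1 at -0.20 in edgeR and -0.0611 to 0.41 without single mice, Col5a1 at up to 0.0849 without single mice (lowest -0.22) and Pcolce2 at -0.0542 with library weights. The change of the diet difference from 8 to 34 weeks turned for Pcolce (-0.0921 with library weights, -0.46 in edgeR, -0.0711 to 0.53 without single mice), for Lox (-0.0212 with library weights) and for Col1a2 (-0.29 to 0.18 without single mice). Col3a1 from 8 to 34 weeks on CD was at -0.16 with library weights and -0.14 to 0.32 without single mice. The ratio of Col1a1 to Col3a1 at 34 weeks was -0.42 with medians and -0.35 to 0.23 without single mice, Col5a3 to Col5a1 was -0.0302 to 0.19 at 8 and -0.49 to -0.28 at 20 weeks, where it passed without CD mouse 3 (exact permutation, adjusted p = 0.0223), and Pcolce2 to Pcolce at 34 weeks was -1.61 to -0.83. The cause of these changes was not tested. Depth limits Pcolce, Pcolce2 and Mrc2 most, which had medians of 2.23 to 4.596 CPM in the CD mice of 8 and 20 weeks.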
